A study of Mus musculus with 8 samples.

Results

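Sprouty, Spred and Pea3-type Etv genes were followed in mouse embryonic stem cells under a block of transcription, by every array probe whose RefSeq accession belongs to Spry1, Spry2, Spry4, Spred1, Spred2, Spred3, Etv1, Etv4 or Etv5. The 9 genes are among 20972 gene symbols on the array and had 13 of its 55681 probes, with 3 Sprouty, 5 Spred and 5 Etv probes. All 13 were among the 33008 probes tested, those for which at least 1 group had every array well above background. Only 9 of the 13 were well above background on all 8 arrays. Spry4, Spred3 and the dimmest Spred1 probe passed only through the untreated group, while some or all treated arrays were not well above background. How often such probes were called therefore carries little information about them. The dimmer Etv1 probe also passed through the vehicle group and was well above background on 2 of 3 4OHT arrays.

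Total RNA from 8 cultures was hybridised to 8 single-colour Agilent arrays. All cultures grew in embryonic stem cell medium with LIF, which supports self-renewal, and with the FGF receptor inhibitor PD173074 at 250 nM, so every group, including the controls, was measured with this inhibitor present. The untreated group (3 arrays, 0 h) received nothing further according to its treatment label, although its sample titles end in a short form of the name actinomycin D. The vehicle group (2 arrays) was given 5 µM actinomycin D, a transcription blocker, and after 30 min ethanol for 4 h. In the 4OHT group (3 arrays) the same actinomycin D step was followed by 4 h of 250 nM 4-hydroxytamoxifen, a ligand often used to switch on proteins fused to a modified oestrogen receptor. The target of 4OHT, the cell line and the clone are not named in the labels. The series title concerns mRNA degradation regulated by Erk, and the comparisons ask how the amounts of existing transcripts differ after a transcription block without and with 4OHT.

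Sprouty proteins are inhibitors of receptor tyrosine kinase signalling that are themselves induced by the Ras, Raf and ERK cascade, and so form a negative feedback loop. Spred proteins carry an EVH1 domain and a Sprouty-related domain, recruit the Ras GTPase-activating protein neurofibromin to the membrane and lower Ras activity. Etv1, Etv4 and Etv5 are the Pea3-type Ets transcription factors, activators whose genes are classical targets of FGF and ERK signalling in embryos and stem cells.

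Each value below is the log2 processed signal minus that array's 75th percentile of it, called the percentile scale, unless the spike-in scale is named. Signal as a whole was dimmer after actinomycin D. The 75th percentile ranged from 333 to 457 intensity units untreated, from 166 to 205 with vehicle and from 180 to 209 with 4OHT, and 61.0% to 75.7%, 55.6% to 60.0% and 53.0% to 57.4% of spots were well above background. On a second scale, relative to 8 of Agilent's E1A spike-in control probes, the median difference of all tested probes between vehicle and untreated was -0.88 in place of 0.40, and that between 4OHT and untreated was -1.26 in place of 0.33. The labels do not describe the addition of the spike-ins, and labelling started from the same mass of total RNA each time. The 8 spike-in probes did not shift alike. Before scaling, their log2 differences ranged from -0.087 to 0.32 for vehicle minus untreated. The ranges were -0.074 to 0.55 for 4OHT minus vehicle and 0.10 to 0.79 for 4OHT minus untreated. Standard errors on the spike-in scale do not include this spread between spike-in probes. Untreated and vehicle arrays lay on slide 2 and the 4OHT arrays on slide 1, so 4OHT and slide cannot be told apart. All 10 stem cell markers examined, Pou5f1, Nanog and Sox2 among them, were well above background on all 8 arrays. Of markers of other cells, 2 of 7 primitive endoderm, 4 of 6 trophoblast, 1 of 5 mesendoderm and neuroectoderm and 4 of 9 feeder fibroblast genes were. Summed levels, in multiples of an array's 75th percentile, were 877 to 1001 untreated, 1234 to 1256 with vehicle and 1063 to 1199 with 4OHT for the stem cell markers. A sum gives most weight to the brightest genes, and with vehicle 4 of the 10 were called higher and 4 lower, Sox2 at -3.54 and Klf4 at -3.61 among them, with a median difference of -0.19. They were 0.64 to 0.86, 0.32 to 0.38 and 0.28 to 0.40 for primitive endoderm, 5.29 to 8.19, 2.08 to 3.56 and 2.29 to 3.55 for trophoblast, 0.36 to 0.60, 0.26 to 0.34 and 0.29 to 0.52 for mesendoderm and neuroectoderm, and 2.69 to 3.82, 3.35 to 3.84 and 4.05 to 4.64 for feeder fibroblasts. Elf5, Postn and Lum were not well above background on any array. The part of other cells in the results was not tested.

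The 250 bases before the annotated start are printed for Spry1, Spry2 and Etv5. Whether these letters relate to the changes after actinomycin D was not tested. Among members with such a window, Spry1 and Spry2 had the largest falls with vehicle. Etv5, printed for both starts, did not fall on the percentile scale. Spry4, also lower with vehicle, and Etv4 had no such window. Sequences are RefSeq's on build GRCm38.p6, 5′ to 3′ on the strand of the gene, and capitals mark the Ets core letters GGAA on that strand or TTCC, its other-strand match.
Spry1, chr3:37639697-37639946, plus strand: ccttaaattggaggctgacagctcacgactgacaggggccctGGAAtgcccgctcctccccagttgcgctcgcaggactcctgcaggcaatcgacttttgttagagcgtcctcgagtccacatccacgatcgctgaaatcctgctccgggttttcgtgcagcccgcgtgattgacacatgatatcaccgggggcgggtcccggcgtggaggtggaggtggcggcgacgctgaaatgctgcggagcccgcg
Spry2, chr14:105896820-105897069, minus strand: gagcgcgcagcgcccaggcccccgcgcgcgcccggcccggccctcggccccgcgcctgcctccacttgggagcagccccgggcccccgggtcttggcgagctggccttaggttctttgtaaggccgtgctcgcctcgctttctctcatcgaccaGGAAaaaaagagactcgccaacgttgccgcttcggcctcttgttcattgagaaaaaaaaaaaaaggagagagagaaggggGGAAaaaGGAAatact
Etv5 first start, chr16:22438369-22438618, minus strand: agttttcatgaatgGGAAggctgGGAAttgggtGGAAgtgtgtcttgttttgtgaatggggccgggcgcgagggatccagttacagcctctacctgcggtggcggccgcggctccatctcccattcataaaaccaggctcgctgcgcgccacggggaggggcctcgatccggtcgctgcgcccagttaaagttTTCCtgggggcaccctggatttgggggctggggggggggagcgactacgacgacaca
Etv5 other start, chr16:22439571-22439820, minus strand: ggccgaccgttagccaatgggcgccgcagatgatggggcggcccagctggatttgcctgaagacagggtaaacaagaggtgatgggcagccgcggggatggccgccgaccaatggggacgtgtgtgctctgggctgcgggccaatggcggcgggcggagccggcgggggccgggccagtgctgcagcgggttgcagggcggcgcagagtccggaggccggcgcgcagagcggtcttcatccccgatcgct
GGAA had 1 match in the Spry1 window, 3 in Spry2 and 4 in the first Etv5 window, and 0 in the other Etv5 window. Among the windows not printed there were 4 matches for Spred1, 7 for Spred2, 1 for Spred3, and 2 and 1 for the 2 starts of Etv1. These 4 letters are common, with at least 1 match on either strand in 93.4% of 32851 such windows and a median of 3. The longer form CCGGAA, which contains GGAA, matched 0 of the 9 member windows and 12.0% of all windows. The GC box GGGCGG was present for Spry1 (1 match), Spred1 (2), Spred2 (1), Spred3 (3) and the other Etv5 start (3), and in 32.7% of all windows. TGACG, the core of the cyclic AMP response element, matched only Spred2 (1) among the member windows and 17.8% of all, and TATAAA matched only the other start of Etv1 (1) and 12.4% of all. All motifs were searched on both strands, and a match describes the letters only.

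After actinomycin D and vehicle, Spry1, Spry2, Spry4, Spred2 and the brightest of 3 Spred1 probes were below untreated. The bright Etv probes were not on the percentile scale, and had lower values on the spike-in scale. Of the 13 probes, 5 were called lower than untreated and 2 higher, at a limma adjusted p under 0.05. The same test called 16.0% of all tested probes lower and 42.1% higher. Among the 5, Spry4 was tested only through its untreated level, so its call adds little to the count. The median difference over the 13 probes was -0.43, and that over all tested probes was 0.40. In bulk RNA, fewer cells of a type and less RNA per cell cannot be told apart.

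Spry1, a Sprouty made in many embryonic tissues, read 1.50, 1.67 and 1.25 untreated, -3.13 and -3.54 with vehicle, and -1.70, -2.54 and -2.43 with 4OHT. The 3 groups did not overlap, with untreated highest and vehicle lowest. In intensity units the same spots gave 941 to 1451 untreated, 17.6 and 19.0 with vehicle, and 30.9 to 64.4 with 4OHT, and all were well above background. Spry1 was 28.0-fold lower with vehicle than untreated, a log2 difference of -4.81 ± 0.28 (SE, 3 and 2 arrays; limma adjusted p = 4.9e-05). Only 34 of the 33008 tested probes had a lower difference.

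Spry2, the most widely studied Sprouty and an inhibitor that acts on Grb2, Cbl and Raf, read 0.63, 0.98 and 0.82 untreated, -2.32 and -2.51 with vehicle, and -2.23, -2.25 and -2.49 with 4OHT. Untreated arrays stood apart from all treated arrays, while vehicle and 4OHT arrays were interleaved. Spry2 fell 9.31-fold with vehicle, a log2 difference of -3.22 ± 0.14 (SE; limma adjusted p = 1.9e-05).

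Spry4, a Sprouty that is a common readout of FGF signalling, read -0.70, -0.42 and -0.50 untreated, -5.33 and -4.67 with vehicle, and -4.77, -4.85 and -3.73 with 4OHT. It was well above background on all 3 untreated arrays, on 0 of 2 vehicle arrays and on 1 of 3 4OHT arrays, the third. The treated values therefore lie near the limit of the array and their order means little. A limit was taken per array as the lowest signal well above background of any probe, or Spry4's own signal where higher. Set against it, Spry4 was 18.2-fold lower with vehicle. This fold is no strict bound, because the limit is lenient. On vehicle replicate 2 the dimmest Spred1 probe, at -4.37, was above the limit of -4.52 and still not well above background. The fit's p (limma adjusted p = 0.00018) uses vehicle signals that were not well above background. The probe was tested because of its untreated level, so this p adds little to the fold.

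**Figure D1:**
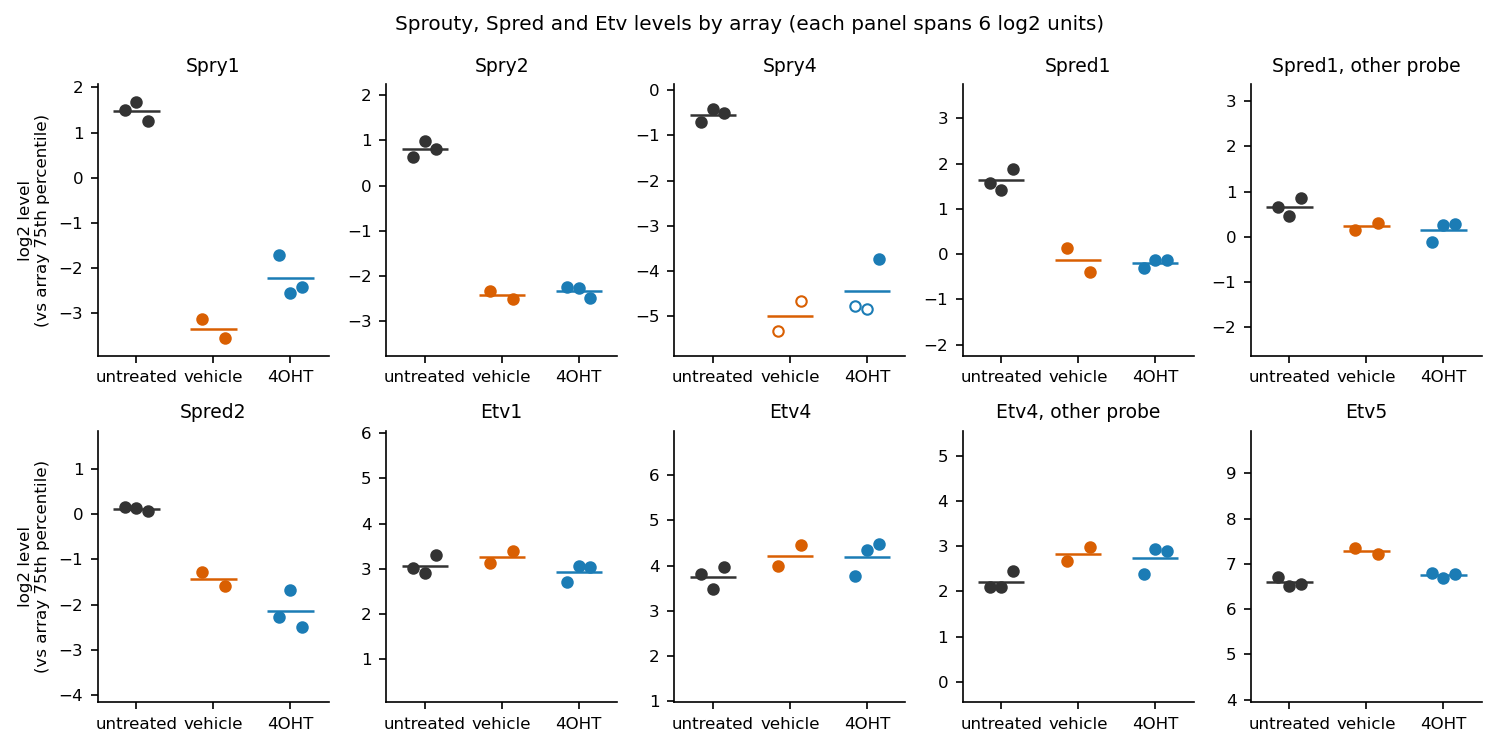
Level of 10 member probes on each array, as log2 processed signal relative to the array's 75th percentile, for untreated (3), vehicle (2) and 4OHT (3) arrays. Points are arrays, lines are group means, open points were not well above background, and the vertical axes differ in position but each spans 6 log2 units. The Sprouty probes drop from untreated means of 1.47, 0.81 and -0.54, whereas the Etv5 means are 6.59, 7.28 and 6.75.

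Spred1, which couples neurofibromin to Ras, was measured by 3 probes. The brightest read 1.58, 1.43 and 1.88 untreated, 0.13 and -0.38 with vehicle, and -0.31, -0.13 and -0.13 with 4OHT, so that untreated arrays lay apart and the treated groups overlapped. By this probe Spred1 fell 3.38-fold with vehicle, a log2 difference of -1.76 ± 0.19 (SE; limma adjusted p = 0.00041). A second probe to the same RefSeq transcript read 0.67, 0.46 and 0.85 untreated, 0.15 and 0.31 with vehicle, and -0.12, 0.26 and 0.29 with 4OHT. Its arrays did not overlap between untreated and vehicle either, but the difference of -0.43 ± 0.17 (SE, 95% interval -0.84 to -0.022) was not called (limma adjusted p = 0.067). The 2 probes disagreed in size: the brighter probe's change minus the other's was -1.33 log2 units with vehicle and -1.31 with 4OHT. The third probe, to another Spred1 transcript, was well above background on 3 of 3 untreated, 1 of 2 vehicle and 1 of 3 4OHT arrays, at levels between -5.09 and -3.34. Averaging the 3 probes gave -0.58 and no call (limma adjusted p = 0.094).

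Spred2, the closest relative of Spred1, read 0.17, 0.13 and 0.06 untreated, -1.27 and -1.58 with vehicle, and -2.28, -1.67 and -2.49 with 4OHT. No 2 groups overlapped, and here the 4OHT arrays were the lowest, where for Spry1 the vehicle arrays were. The gap was narrow, with 4OHT replicate 2 at -1.67 and vehicle replicate 2 at -1.58. Neither gene was called between 4OHT and vehicle in the main fit. Spred2 fell 2.92-fold with vehicle, a log2 difference of -1.55 ± 0.24 (SE; limma adjusted p = 0.0015). Spred3, a family member with little transcript here, was well above background on the 3 untreated arrays alone, at -4.89, -5.05 and -4.87, and on 0 of 2 vehicle and 0 of 3 4OHT arrays. The fold computed for it as for Spry4 came out under 1, so none is given for Spred3.

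Etv5, an activator linked to stem cell identity, read 6.71, 6.52 and 6.55 untreated, 7.36 and 7.21 with vehicle, and 6.79, 6.68 and 6.78 with 4OHT. Vehicle arrays were above all others, and the untreated and 4OHT arrays overlapped. Relative to the percentile Etv5 rose 1.61-fold with vehicle, a log2 difference of 0.69 ± 0.10 (SE; limma adjusted p = 0.0014). On the spike-in scale the same difference was -0.59 ± 0.22 (SE), so the direction turned with the scale.

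Etv4, known as Pea3 itself, had a brighter probe at 3.82, 3.48 and 3.98 untreated, 4.00 and 4.45 with vehicle, and 3.77, 4.36 and 4.48 with 4OHT. The vehicle values were just above the untreated ones and the 4OHT values overlapped both groups. The vehicle difference was 0.47 ± 0.26 (SE, 95% interval -0.16 to 1.09; limma adjusted p = 0.17), and on the spike-in scale -0.81 ± 0.26. The other Etv4 probe read 2.10, 2.10 and 2.44 untreated, 2.66 and 2.99 with vehicle, and 2.39, 2.93 and 2.89 with 4OHT. Its vehicle values did not overlap the untreated ones, and the difference of 0.61 ± 0.21 (SE) was called higher (limma adjusted p = 0.041). The call was lost without untreated replicate 1 (adjusted p = 0.10), untreated replicate 2 (0.092), vehicle replicate 1 (0.052), vehicle replicate 2 (0.21) or 4OHT replicate 3 (0.053), and the spike-in difference was -0.66.

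Etv1, the Pea3-type factor also called ER81, read 3.03, 2.90 and 3.30 untreated, 3.13 and 3.40 with vehicle, and 2.70, 3.07 and 3.05 with 4OHT by its bright probe. Untreated and vehicle arrays overlapped, with a difference of 0.19 ± 0.17 (SE, 95% interval -0.22 to 0.60; limma adjusted p = 0.39) and of -1.09 on the spike-in scale. A dim Etv1 probe was well above background on 3 of 3 untreated, 2 of 2 vehicle and 2 of 3 4OHT arrays, between -5.17 and -3.02, and its vehicle difference of 0.25 was not called (adjusted p = 0.70).

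**Figure D2:**
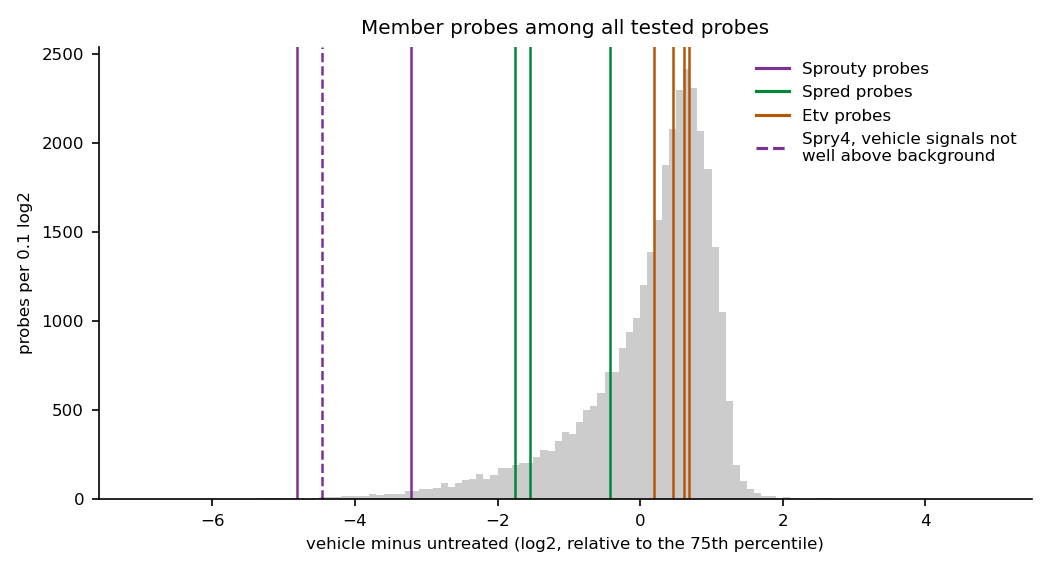
Histogram of the vehicle minus untreated difference (log2, percentile scale) over the 33008 tested probes in steps of 0.1, with vertical lines at 10 member probes. The Sprouty lines lie at the far left, with Spry1 at -4.81 and Spry2 at -3.22, the brighter Spred lines at -1.76 and -1.55, and the Etv lines between 0.19 and 0.69 in the bulk of all probes; the dashed Spry4 line is drawn from vehicle signals not well above background.

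The spike-in scale lowers the vehicle difference of every probe by the same amount, so a fall on the percentile scale could not turn there. On the spike-in scale the vehicle differences were -6.08 for Spry1, -4.49 for Spry2, -3.03 and -1.70 for the 2 brighter Spred1 probes, and -2.82 for Spred2. Because the percentile and spike-in scales differ by 1 shift per array, the distance of a probe from the median of all probes is the same on both. With vehicle, Spry1 lay at -5.21 log2 units from that median, with -3.62 for Spry2, -2.16 for Spred1 and -1.95 for Spred2. The same distance was -0.21 for Etv1, 0.066 for Etv4 and 0.29 for Etv5, so the Etv probes lay close to the median probe.

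**Figure D3:**
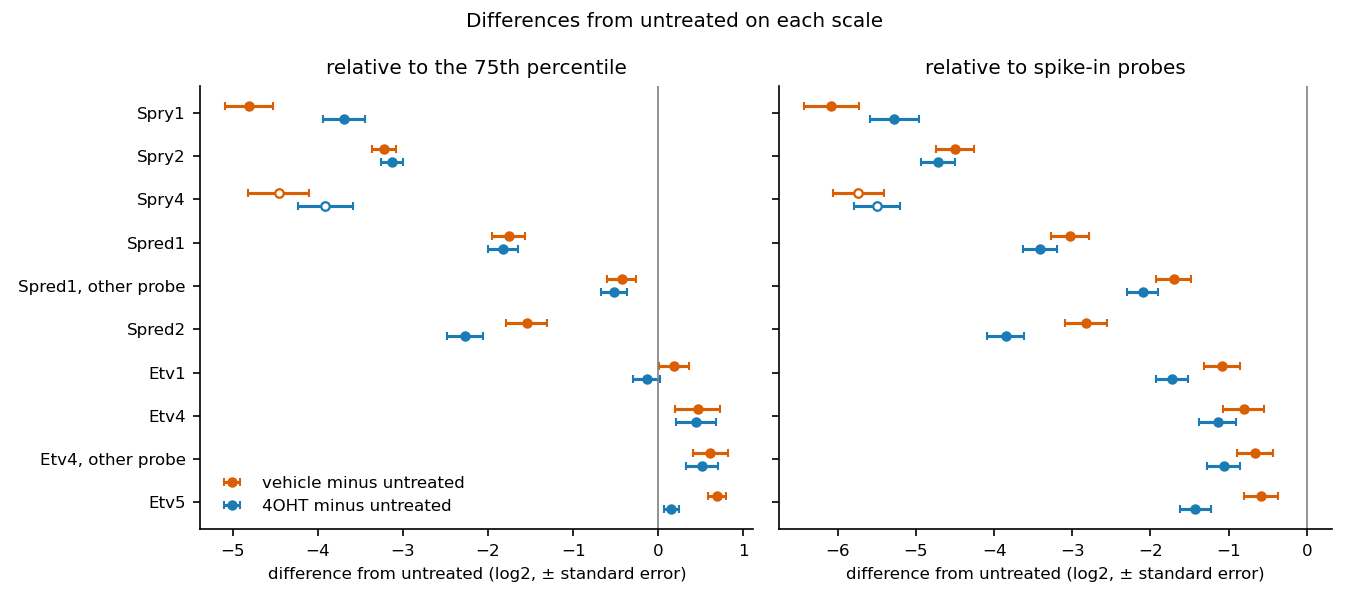
Log2 differences from untreated for 10 member probes (points, with standard errors), vehicle minus untreated and 4OHT minus untreated, on the percentile scale (left) and the spike-in scale (right). Open Spry4 points rest on treated signals mostly not well above background. The Etv5 vehicle difference is 0.69 on the left and -0.59 on the right, while Spry1 is negative on both, at -4.81 and -6.08.

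Changes were also set against Etv5 on the same array, which removes any shift shared by an array's probes. With vehicle, the change of Spry1 minus that of Etv5 was -5.50 log2 units, and the values were -3.91 for Spry2, -2.45 for Spred1, -2.23 for Spred2, -0.50 for Etv1 and -0.22 for Etv4. With 4OHT the corresponding values were -3.85, -3.29, -1.98, -2.42, -0.29 and 0.29. Etv5 itself differed by -0.53 between 4OHT and vehicle on the percentile scale, and this enters every gap between the 2 sets of values. In that comparison Spry2 differed by 0.089 and the brightest Spred1 probe by -0.065. For Spry1, Spry2, Spred1 and Spred2, these values did not overlap with those of the untreated arrays in either treated group. The share of all tested probes that separated in this way was not computed, so the separation is not shown to be particular to them. Within the Sprouty genes, the change of Spry1 minus that of Spry2 was -1.59 ± 0.16 log2 units with vehicle (SD, n = 2), apart from the untreated arrays, and -0.56 ± 0.42 with 4OHT (SD, n = 3), overlapping with untreated. Over 10 pairs and 3 comparisons, 30 exact two-sided permutation tests were run, and none could pass 0.05, since 3 arrays against 2 cannot go under 0.2 here and 3 against 3 not under 0.1. The Spry1 and Spry2 pair gave exact p = 0.2 in each comparison.

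**Figure D4:**
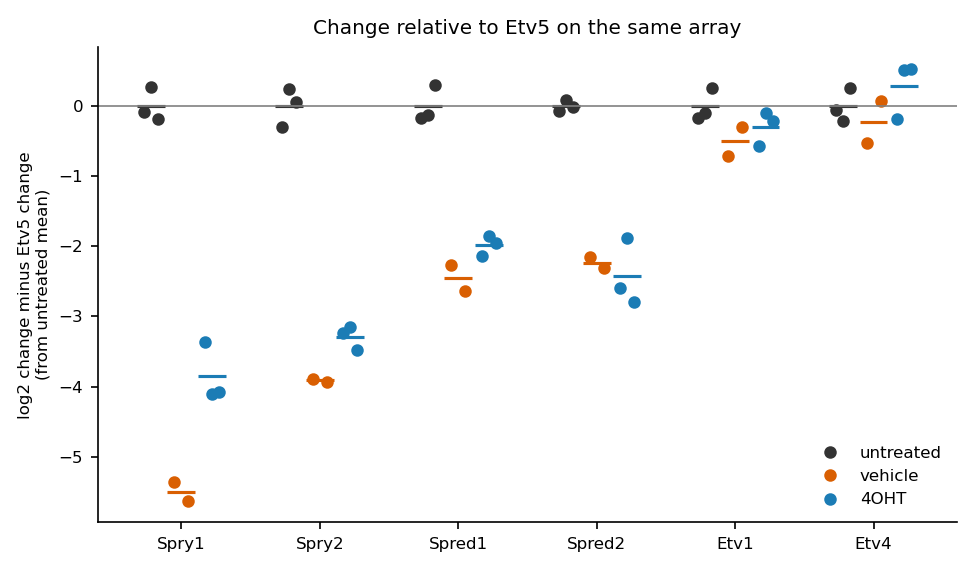
Change of each gene from its untreated mean minus the change of Etv5 on the same array (log2), for untreated, vehicle and 4OHT arrays; points are arrays and lines group means. Spry1 sits at -5.50 with vehicle and -3.85 with 4OHT, and Etv4 at -0.22 and 0.29, near the untreated arrays.

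Between 4OHT and vehicle, both after actinomycin D, few member probes were called. Of 13 probes, 0 were called higher and 1, Etv5, lower by limma, where 0.933% and 2.51% of all tested probes were called. At an unadjusted p under 0.05, 1 member probe was higher and 2 were lower, and with trended variances limma called 1 higher. The median difference was -0.065 for the members and -0.045 for all probes.

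Etv5 was 1.45-fold lower with 4OHT, a log2 difference of -0.53 ± 0.10 (SE, 95% interval -0.78 to -0.29; limma adjusted p = 0.046), and its 3 4OHT arrays lay under both vehicle arrays. The call was lost whichever of the 8 arrays was left out, with differences of -0.61 to -0.46 and adjusted p of 0.062 to 0.20, and also under 9 other settings listed in the closing section. It was -0.84 on the spike-in scale (adjusted p = 0.064).

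Among the 9 probes measured on all arrays Spry1 had the largest difference, 1.11 ± 0.28 log2 units (SE, 95% interval 0.45 to 1.78), and its 3 4OHT arrays lay above both vehicle arrays. It was not called (unadjusted p = 0.0054, limma adjusted p = 0.088), except with trended variances (adjusted p = 0.048). Of all tested probes, 99.0% had a lower difference than Spry1. The vehicle readings were 17.6 and 19.0 intensity units, near the dim end of the array. Normexp background correction, which lifts dim signals, gave 0.46 (adjusted p = 0.14), and the difference without 4OHT replicate 1, the highest array, was 0.85 (adjusted p = 0.099).

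Spry2 differed by 0.089 ± 0.14 (SE, 95% interval -0.25 to 0.43; limma adjusted p = 0.80). The change of Spry1 minus that of Spry2 was 1.03 log2 units higher with 4OHT than with vehicle, with arrays not overlapping (exact permutation p = 0.2, the smallest this test can give). Spry4 was well above background on 1 of 5 treated arrays and has no fold between them.

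Spred2 differed by -0.72 ± 0.24 (SE, 95% interval -1.29 to -0.16), its arrays did not overlap, and it was not called (limma adjusted p = 0.16). The brightest Spred1 probe differed by -0.065 (95% interval -0.52 to 0.39; adjusted p = 0.90) and the second by -0.086 (adjusted p = 0.84). Etv1 differed by -0.32 ± 0.17 (SE, 95% interval -0.74 to 0.088; limma adjusted p = 0.38) with arrays that did not overlap. The 2 Etv4 probes differed by -0.024 and -0.093 (limma adjusted p of 0.98 and 0.86).

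**Figure D5:**
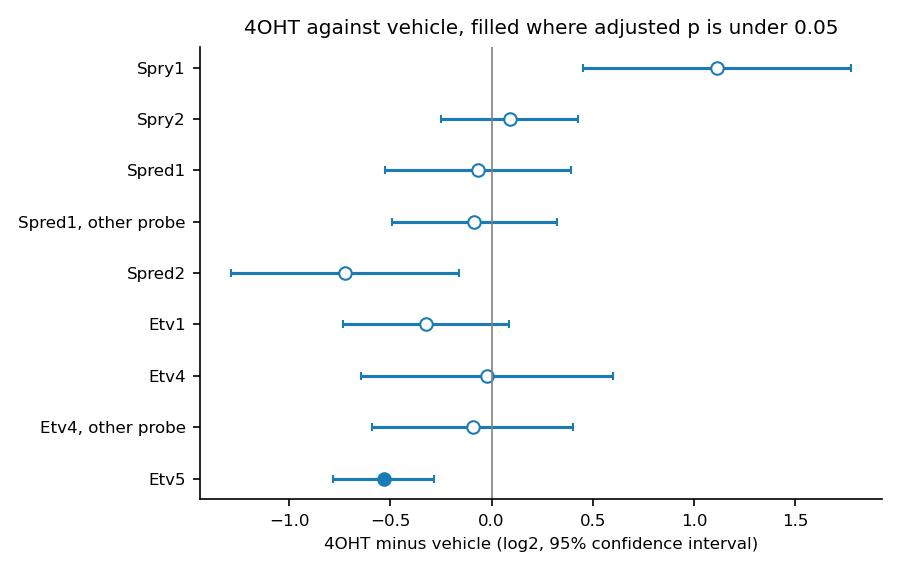
Difference 4OHT minus vehicle (log2, percentile scale) with 95% confidence intervals for 9 member probes that were well above background on all 8 arrays, filled where limma's adjusted p is under 0.05. Spry1 lies highest at 1.11 and Spred2 lowest at -0.72, and Etv5 at -0.53 is the filled point.

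With 4OHT against untreated, 6 of 13 probes were called lower and 1 higher, where limma called 18.7% and 42.2% of all probes, and the medians were -0.48 for the members and 0.33 for all. This comparison uses the same untreated arrays as the vehicle comparison, so the values are given side by side only, and it crosses slides. Spry1 differed by -3.69 with 4OHT (limma adjusted p = 5.4e-05) beside -4.81 with vehicle. Spry2 differed by -3.13 (limma adjusted p = 6.9e-06) beside -3.22, and Spry4, with 1 of 3 4OHT arrays well above background, had an adjusted p of 0.00011 which is limited in the same way as that for vehicle. The brightest Spred1 probe differed by -1.82 (limma adjusted p = 0.00017) beside -1.76, and Spred2 by -2.27 (adjusted p = 0.00016) beside -1.55. The second Spred1 probe fell by 0.52 (limma adjusted p = 0.023), a call lost without untreated replicate 1 (0.060), untreated replicate 3 (0.074) or 4OHT replicate 1 (0.058).

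The Etv probes again stood near the untreated level on the percentile scale. Etv5 differed by 0.16 ± 0.094 (SE, 95% interval -0.066 to 0.38; limma adjusted p = 0.19), Etv1 by -0.14 ± 0.16 (adjusted p = 0.48) and the brighter Etv4 probe by 0.44 ± 0.24 (adjusted p = 0.15). The brighter Etv4 probe was called without 4OHT replicate 1 (0.66, limma adjusted p = 0.033). The other Etv4 probe was called higher, at 0.52 (adjusted p = 0.047), and lost the call without untreated replicate 1 (0.13) or 2 (0.11), vehicle replicate 1 (0.053) or 2 (0.053), or 4OHT replicate 2 (0.14) or 3 (0.13). On the spike-in scale all of these were lower, at -1.43 for Etv5, -1.72 for Etv1 and -1.14 and -1.06 for Etv4.

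Partners of the Sprouty and Spred proteins mostly did not share the fall on the percentile scale. Of 24 genes listed, 22 were tested, 20 of them well above background on all 8 arrays. With vehicle 13 were called higher and 4 lower, with a median difference of 0.39 beside 0.40 for all probes. Of all tested probes 42.1% were higher and 16.0% lower. All 13 higher calls were lost on the spike-in scale and without scaling, and 11 of the 13 with cyclic loess. Among the lower were Siah2, a ubiquitin ligase for Sprouty (1 of 2 vehicle arrays well above background; call lost without vehicle replicate 2), the kinase Dyrk1a at -1.74 and the FGF receptor adaptor Frs2 at -1.18. Among the higher were the ubiquitin ligases Cblc at 0.98, Nedd4 at 0.92 and Cbl at 0.77 and the Spred partner Nf1, which encodes neurofibromin, at 0.70. The Cblc call was lost without untreated replicate 1 or 3 or vehicle replicate 1 (limma adjusted p up to 0.11) and with the replicate block. On the spike-in scale these 4 had negative differences, at -0.30, -0.35, -0.50 and -0.57, and the list's median was -0.89 beside -0.88. With 4OHT against untreated 12 were higher and 5 lower, beside 42.2% and 18.7% of all tested probes.

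Most of the other feedback inhibitors and targets of ERK listed were lower with vehicle, in a list chosen with earlier results of these data known. Of 27 listed, 24 were tested, and with vehicle 19 were called lower and 3 higher. Their median was -2.90 on the percentile scale and -4.18 on the spike-in scale. Only 19 of the 24 were well above background on all 8 arrays, and Fos was not. A lower call says little for a gene tested only through its untreated level. All tested probes had medians of 0.40 and -0.88, with 16.0% called lower and 42.1% higher on the percentile scale. Fos, an immediate early gene, was 9.86-fold lower by the limit used for Spry4, which gives no strict bound. The ERK phosphatase Dusp6 differed by -4.85, Myc by -4.72 and the early response gene Ier3 by -4.09. Higher were Ccnd1 (cyclin D1) at 0.99, the phosphatase Dusp9 at 0.89 and Emp1 at 0.87, all 3 with negative differences on the spike-in scale. The call was lost without vehicle replicate 1 for Dusp9 and without vehicle replicate 2 for Emp1. Beside 0.933% higher and 2.51% lower among all tested probes, 5 of the 24 were called higher with 4OHT against vehicle and 0 lower. These were the receptor Epha2 at 2.54 ± 0.17 (SE; limma adjusted p = 0.0027), Fgf4 at 1.36 (adjusted p = 0.0090), Ier3 at 1.33 (adjusted p = 0.025), the EGF receptor inhibitor Errfi1 at 0.61 (adjusted p = 0.048), and Fos, which was not well above background in either group and has no fold. Of these, Epha2 kept its call in all 8 fits that left out an array, Fgf4 lost it in 1 (without vehicle replicate 1, adjusted p = 0.052), Ier3 in 5 (adjusted p up to 0.13), Errfi1 in 8 (up to 0.16) and Fos in 2 (without vehicle replicate 1 or 4OHT replicate 3, up to 0.089). Fgf4, Ier3, Errfi1 and Fos also lost it with the replicate block and with only the 2 groups fitted, whereas Epha2 kept it in all 15 other settings. With 4OHT against untreated 19 were lower and 4 higher, beside 18.7% and 42.2% of all tested probes.

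Among other Ets family genes, 19 of 23 were tested, 18 of them well above background on all 8 arrays. With vehicle 8 were called lower and 3 higher, with a median of -0.20. All tested probes had a median of 0.40, with 16.0% called lower and 42.1% higher. Elf1 differed by -2.01, Spic by -1.97, the repressor Etv3 by -1.66 and Elf3 by -1.65, while the ternary complex factors Elk4 and Elk1 differed by 0.97 and 0.60 and Gabpa by 0.40. The Elk1 call was lost without untreated replicate 3 or vehicle replicate 1, with differences down to 0.33, and the Gabpa call without 5 of the 8 arrays in turn. With 4OHT against vehicle 0 were called in either direction by limma, beside 0.933% higher and 2.51% lower among all tested probes. With 4OHT against untreated 7 were lower and 2 higher, beside 18.7% and 42.2% of all tested probes. Of 9 genes that act on Pea3-type factors or their genes, 7 were tested, 6 of them well above background on all 8 arrays. With vehicle 4 were lower and 3 higher, and 0 were called with 4OHT against vehicle. The vehicle counts stand beside the same 16.0% lower and 42.1% higher of all tested probes. The pseudokinase genes Trib1, which differed by -4.75, and Trib2, 2.92-fold lower by the limit used for Spry4, were lower. So were the Cic cofactor gene Atxn1l at -0.59 and the ubiquitin ligase subunit Det1 at -0.42. Leaving out vehicle replicate 1 lost the call of Atxn1l, and leaving out vehicle replicate 2 that of Det1. Among the higher were Capns1 at 0.95 and Cop1, a ligase for Etv proteins, at 0.41 (a call lost in 7 of 8 fits that left out an array). On the spike-in scale the higher Ets and regulator genes named here had negative differences from untreated.

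The symbols nearest to each member over the 8 arrays were found by the root-mean-square difference in log2 value, each gene centred on its untreated mean. Spry2 lay nearest to Il17rd at 0.111, then Kbtbd6 at 0.131 and Zfp799 at 0.139 (well above background on 7 arrays). Spry1 had no neighbour as close, with Fos at 0.262 (well above background on 3 arrays only), Trmt10c at 0.372 and Bag5 at 0.421. Nearest to Spred1 were Soga3 at 0.132, Zfp612 at 0.150 and Rbm12b2 at 0.150, and to Spred2 Lratd1 at 0.185 (well above background on 3 arrays only), Zfp781 at 0.188 and Flcn at 0.204. The Etv neighbours were closer, with Qprt at 0.0671 for Etv4 and Olfr1143 at 0.0526 for Etv5, where many probes lie close to the median. The arrays share groups, so these distances mainly reflect group means and carry no test.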

How the data were processed

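Single-colour Agilent arrays of 8 cultures (untreated 3, vehicle 2, 4OHT 3) were used. Per the file headers, the deposited intensity is the green-channel processed signal of Feature Extraction 11.0.1.1, a linear value after background subtraction, while the labels name the dye Cy5. The deposited value table holds the same values rounded (largest relative difference 0.00497). Per the series' design text every condition had 3 biological replicates, of which the vehicle group has 2 here.

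Control spots (3671) were left out, spots of a probe were averaged in log2, and 466 probes with an outlier-marked spot leaving an array without a value were dropped, 425 of them through untreated replicate 2. No spot was saturated (0). Accessions were matched to symbols for 27656 probes through a RefSeq gene table of GRCm38.p6, used for names because the files name another build. Promoter windows existed for 7 of the 9 genes. No probe sequences or proteins were used here.

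All 33008 probes were fitted together with limma 3.58.1 in R 4.3.3 (lmFit and eBayes, 3 groups, 5 residual degrees of freedom) and p-values were two-sided and Benjamini-Hochberg adjusted over all of them, with a threshold of 0.05. The script was tested on simulated data. These p-values measure the spread between cultures, and precision is limited by how few arrays there are. Single values used scipy 1.17.1. A gene outside the members stands for its brightest probe. From each gene list up to 4 called genes per direction are named, and up to 3 nearest symbols for likeness; a few items are not reported here. The members and lists were chosen with earlier results of these data known. Alternatives covered normexp (offset 50), quantile, median, cyclic loess, spike-in and no scaling, the filter, the choice of probe, eBayes settings, the groups fitted, a replicate block and leaving out each array.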

Additional observations from a re-analysis of the deposited data

How the results depend on the processing

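The signal of Spry4, Spred3 and the dimmest Spred1 and Etv1 probes over background limits what they can show, and the 2 vehicle arrays limit every comparison with vehicle. The calls of Spry1, Spry2 and Spred2 below untreated held in every setting in which they were tested, in both treated groups, and those of the brightest Spred1 probe in all but the mean of probes. The Etv results did not. Vehicle minus untreated turned negative for Etv1 under normexp (-0.073), quantile (-0.094), no scaling (-0.91), spike-in (-1.09) and cyclic loess (-0.27). For the brighter Etv4 probe it was -0.63 unscaled, -0.81 with spike-ins and -0.086 with loess, for the other Etv4 probe -0.48 and -0.66 unscaled and with spike-ins, and for Etv5 -0.20 (quantile), -0.41 (unscaled), -0.59 (spike-in) and -0.14 (loess). 4OHT minus untreated turned for the Etv4 probes to -0.61 and -0.54 unscaled, -1.14 and -1.06 with spike-ins and -0.097 (brighter, loess), for Etv5 to -0.023 (normexp), -0.64 (quantile), -0.90 (unscaled), -1.43 (spike-in) and -0.61 (loess), and for Etv1 to 0.016 (median scaling). 4OHT minus vehicle, uncalled throughout for these, turned for Spry2 to -0.22 (spike-in), for the Spred1 probes to 0.046 and 0.025 (median scaling) and 0.029 (second probe, normexp), and for Etv4 to 0.017 (normexp), 0.088 (median scaling), 0.018 (unscaled) and, other probe, 0.018 (median scaling). Leaving out an array gave ranges of -0.0044 to 0.18 for Spry2, -0.32 to 0.19 and -0.17 to 0.043 for the Spred1 probes, and -0.25 to 0.20 and -0.26 to 0.081 for the Etv4 probes.

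Member probes higher with vehicle than untreated numbered 2, and 4 under normexp, 0 under quantile, median, spike-in, loess or no scaling, and 1 without a filter, with 1 probe per gene or with the mean of probes (1 to 2 leaving out an array). Lower ones numbered 5, and 8 unscaled and 11 with spike-ins (5 to 7 leaving out an array). Of all tested probes, 46.1% were called lower unscaled and 65.0% with spike-ins, and 68.1% higher under normexp. Higher than vehicle with 4OHT was 0, and 1 with trended variances. The 1 lower, Etv5, became 0 under normexp, quantile, median, spike-in, loess and no scaling, without a filter, with only the 2 groups, with the replicate block and without any array. Higher than untreated with 4OHT was 1, and 3 under normexp and 0 under quantile, median, spike-in, loess and no scaling, without a filter, with 1 probe per gene or their mean, and with only the 2 groups (0 to 2 leaving out an array). Lower ones numbered 6, and 10 unscaled and 13 with spike-ins (5 to 6 leaving out an array). In this comparison 54.4% of all tested probes were called lower unscaled and 93.2% with spike-ins, and 70.3% higher under normexp. The causes were not tested.

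Over all probes, vehicle against untreated had 13905 higher and 5279 lower calls, and 22464 and 3971 under normexp, 8924 and 5699 under quantile, 8715 and 4172 under median scaling, 37 and 15208 unscaled, 33 and 21460 with spike-ins, and 5480 and 6893 with loess. 4OHT against untreated had 13937 and 6160, and 23203 and 4235 under normexp, 100 and 17962 unscaled, 30 and 30777 with spike-ins, and 6846 and 7736 with loess. 4OHT against vehicle had 308 and 829, and 42 and 1290 with spike-ins, 19 and 80 unscaled, 89 and 171 under median scaling, 30 and 94 without a filter, 16 and 40 with only the 2 groups, 57 and 208 without 4OHT replicate 2, and 73 and 92 without vehicle replicate 1 (57 to 232 and 92 to 615 over the arrays left out). With the replicate number as a block they were 8 and 14, the Etv5 call was lost (adjusted p = 0.13), and no other member call changed. In deviations from group means, same-numbered arrays correlated at -0.21 to 0.38, and at 0.38 and 0.23 between vehicle and 4OHT. The deviations of the 2 vehicle arrays mirror each other, so this check cannot decide whether the numbers are pairs. The main fit did not take them as pairs.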
